A study of Mus musculus with 12 samples.

Results

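The genes described here are 10 CC chemokine genes of the mouse, Ccl2, Ccl3, Ccl4, Ccl5, Ccl7, Ccl9, Ccl12, Ccl17, Ccl20 and Ccl22. They were named as genes of a secreted signalling family, with earlier results of these data known. Each was read from its symbol's brightest probe set by mean signal. Each of the 10 has 1 probe set, so no choice between probe sets was needed, and together they are 10 of the 19505 genes measured. The cells were RAW 264.7, an established macrophage-like mouse line, with 1 Affymetrix array per sample and 12 arrays in 4 groups of 3. The groups were inulin with TsSP, TsSP without inulin, inulin without TsSP, and LPS alone. Every group, the LPS group included, received lipopolysaccharide (LPS, a bacterial outer membrane component that activates macrophages) at 500 ng/mL, and no array of cells without LPS was part of the comparison. Inulin, a plant fructan, was given at 500 µg/mL and TsSP at 50 µg/mL, with culture for 6 h. The labels use TsSP without spelling it out, and the study's design speaks of helminth products. The changes below are therefore changes of chemokine transcripts in LPS-treated cells, not changes of the response to LPS over untreated cells. The labels do not state whether a group's 3 arrays stem from separate cultures. The p-values therefore reflect the variation among the arrays at hand, and that variation may be technical.

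CC chemokines are small secreted proteins with adjacent cysteines near the amino terminus, and they attract leukocytes through receptors coupled to G proteins. Macrophages that sense LPS through Tlr4 switch on many of these genes through NF-kB and interferon regulatory factors. Ccl2, Ccl7 and Ccl12 attract monocytes, chiefly through Ccr2. Ccl3, Ccl4 and Ccl5 attract monocytes, T cells and natural killer cells, and Ccl9 acts through Ccr1. Ccl17 and Ccl22 bind Ccr4 on T cells, including regulatory T cells, and Ccl20 binds Ccr6 on lymphocytes and dendritic cells.

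The promoter sequences of Ccl20 and Ccl9 are shown because these genes had the largest and the smallest fitted log2 change with TsSP among the 10. They are the 250 bases before the annotated start, 5′ to 3′ on the gene's strand, from RefSeq on build GRCm38.p6, at chr1:83116516-83116765 (plus strand) for Ccl20 and chr11:83578637-83578886 (minus strand) for Ccl9. Capitals mark the matches to the motifs searched.
Ccl20: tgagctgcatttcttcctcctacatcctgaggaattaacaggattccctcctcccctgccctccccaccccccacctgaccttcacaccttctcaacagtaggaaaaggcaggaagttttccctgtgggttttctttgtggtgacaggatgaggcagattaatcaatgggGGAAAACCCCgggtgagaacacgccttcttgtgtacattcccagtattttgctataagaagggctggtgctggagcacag
Ccl9: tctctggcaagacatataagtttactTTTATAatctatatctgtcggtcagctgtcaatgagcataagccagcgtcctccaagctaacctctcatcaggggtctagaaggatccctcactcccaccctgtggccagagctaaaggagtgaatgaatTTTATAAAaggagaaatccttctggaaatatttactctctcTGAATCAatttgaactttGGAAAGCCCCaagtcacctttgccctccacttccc
The Ccl20 window holds 1 match to the NF-kB decamer (GG, a pair of purines, any pair of bases, a pair of pyrimidines, CC), GGAAAACCCC, at 80 to 71 bases before the start. The Ccl9 window also holds a decamer match, GGAAAGCCCC, at 35 to 26 bases before the start. An AP-1 match (TGANTCA) lies at 53 to 47 bases before the start. The window also has 3 matches to the TATA motif TATAAA, of which those at 94 to 89 and at 92 to 87 bases overlap on opposite strands. A decamer match was present in both windows, and its relation to the size of the change was not tested. Of the 32851 promoter windows of the same length, 9.55% hold the decamer, 6.75% the AP-1 motif and 12.4% TATAAA on either strand. The table held promoters for 6 of the 10 genes. Among the other 4 of these, Ccl17 had a STAT match (TTCNNNGAA, in 7.02% of windows) and Ccl12 a TATAAA match. Ccl3 and Ccl22 had no match to the 6 motifs searched, which included the interferon-stimulated response element (GAAANNGAAA, 2.98%) and the C/EBP motif (TTGCNNAA, 9.56%). Such matches describe letters in the window and do not show that a factor was bound.

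The values are deposited log2 signals, where 1 unit is a doubling of signal, and array medians over all probe sets lay between 5.16 and 5.30. LPS replicate 1 had the lowest median and the lowest median of background probes, at 4.99 against 5.20 to 5.43 on the other arrays. Leaving it out changed no call among the 10 genes. Of 10 macrophage markers measured, 9 were above background on all 12 arrays, among them Spi1, Csf1r and Ptprc. Mrc1, the mannose receptor, was below background on every array. The mean of that list was 14.01 to 14.08 with inulin and TsSP, 14.07 to 14.16 with TsSP, 14.02 to 14.10 with inulin and 13.95 to 14.10 with LPS alone. None of the 7 dendritic cell, 4 neutrophil, 6 lymphocyte, or 6 fibroblast and epithelial markers measured was above background on all 12 arrays of the line. The defining markers Flt3, Zbtb46, Mpo, Cd3e, Cd79a and Epcam were below background on every array. Of 3 endothelial markers, Pecam1 was above background on 12 arrays, Cdh5 on 7 and Kdr on 0. Among these markers, Adgre1 (the F4/80 antigen) was 2.08-fold lower, Itgam 1.67-fold and Lyz2 1.36-fold higher, and Cdh5 at least 1.97-fold lower with TsSP than with LPS alone. Exon control probe sets had a median of 11.22 to 11.36 on arrays with TsSP and 11.00 to 11.21 on arrays without it. The part of these shifts in the chemokine changes was not tested.

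With TsSP, 9 of the 10 chemokine transcripts were lower than with LPS alone and 0 were higher. These included Ccl20 (at least 5.66-fold lower), Ccl7 (3.81-fold), Ccl22 (3.68-fold) and Ccl2 (3.22-fold). Ccl17, below background with TsSP, has only a lower bound (at least 1.88-fold), and Ccl9 did not pass the test. The members are read against the background of the whole comparison, in which limma called 7.08% of the 19505 genes lower and 11% higher with TsSP than with LPS alone, at a Benjamini-Hochberg adjusted p under 0.05. All 10 genes were above background in a group, as were 9022 genes in all. When limma was run on those 9022 alone, 4182 were called, 1565 of them lower, a larger share than over all genes. The median log2 change of the 10 genes was -1.46, against 0.02 over all genes tested. In each of the 9 called genes the 3 TsSP arrays all lay below the 3 LPS arrays. That separation largely follows from the call, and its share over all genes was not counted. Fewer expressing cells and less RNA per cell cannot be told apart in such bulk samples.

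**Figure D1:**
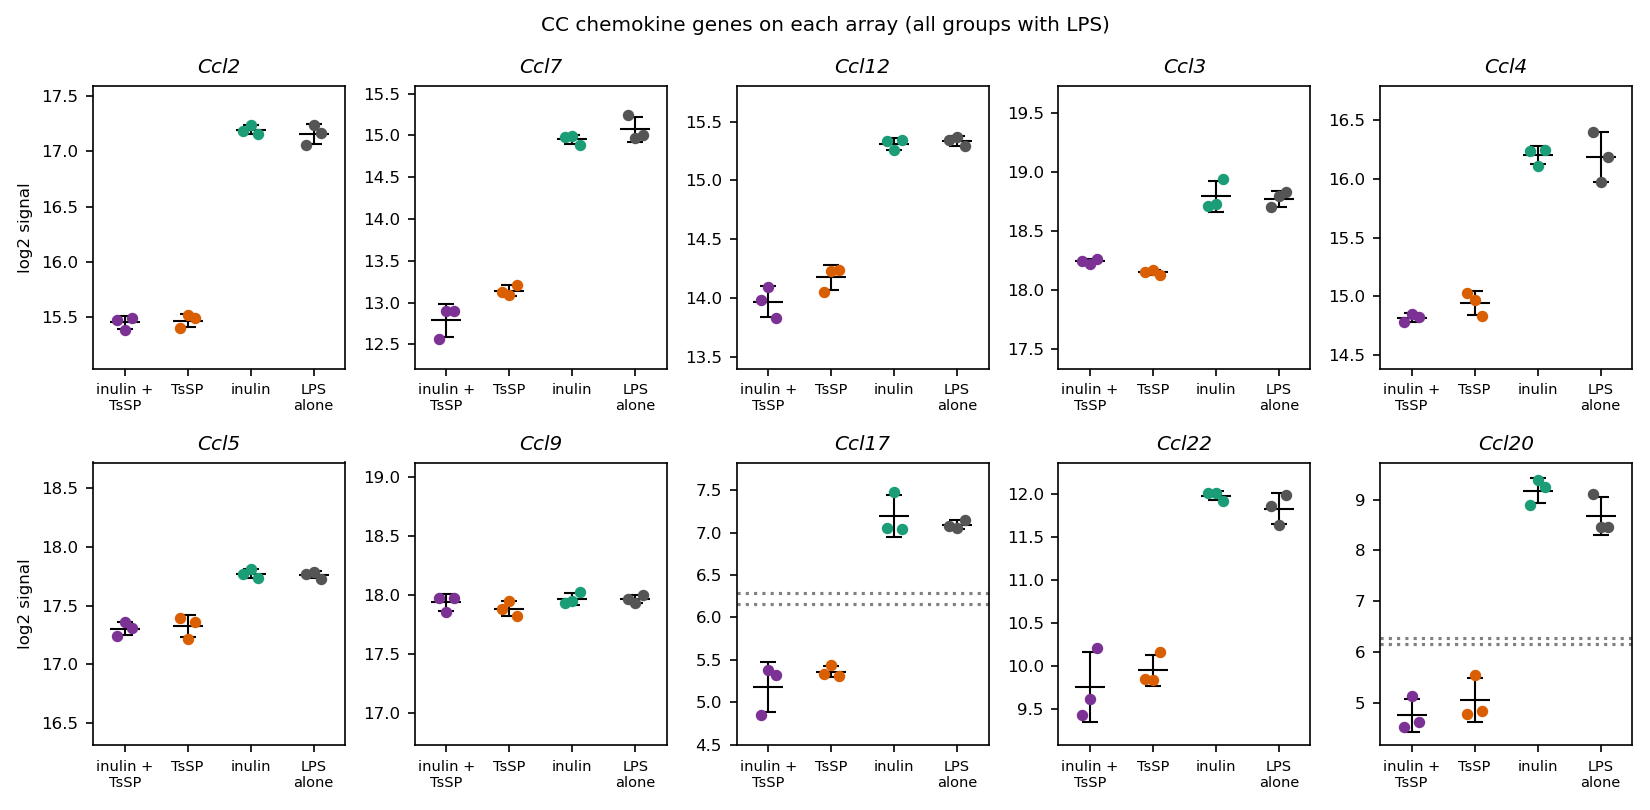
Log2 signal of each of the 10 CC chemokine genes (vertical axes, each with its own range) on the 12 arrays, by treatment group. Points are arrays, horizontal bars are group means, whiskers are SD (n = 3), and dotted lines in the Ccl17 and Ccl20 panels give the range of the background level over the arrays. In 9 panels the arrays with TsSP lie below all arrays without it, a separation whose share over all genes was not counted. In the Ccl9 panel the 4 groups overlap.

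Among the chemokines that attract monocytes, Ccl2, also known as monocyte chemoattractant protein, had signals of 15.40, 15.52 and 15.49 on the TsSP arrays, against 17.06, 17.24 and 17.17 on the LPS arrays. The groups were more than 1 log2 unit apart. The fitted change was -1.69 (SE 0.10), or 3.22-fold lower with TsSP (95% interval 2.75 to 3.77, adjusted p = 8.96e-07). Ccl7 had 13.12, 13.09 and 13.21 with TsSP, against 15.24, 14.97 and 15.01 with LPS alone. Its change of -1.93 (SE 0.13) is 3.81-fold lower (interval 3.13 to 4.63, adjusted p = 1.6e-06). Ccl12, a mouse chemokine close to Ccl2 that also acts through Ccr2, had 14.05, 14.23 and 14.24 with TsSP, against 15.34, 15.37 and 15.29 with LPS alone. Its fall was smaller, 2.23-fold (interval 1.88 to 2.65, adjusted p = 2.57e-05). The intervals of Ccl12 and Ccl7 do not overlap, although a difference between genes was not tested and can depend on how their probes respond.

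Of the macrophage inflammatory protein type of chemokines and Ccl5, Ccl4, Ccl3 and Ccl5 were lower with TsSP and Ccl9 did not pass the test. Ccl4 had 15.03, 14.97 and 14.83 on the TsSP arrays, against 16.39, 15.98 and 16.18 on the LPS arrays, which is 2.36-fold lower (interval 1.95 to 2.86, adjusted p = 3.67e-05). Ccl3 had 18.16, 18.17 and 18.12 with TsSP, against 18.70, 18.80 and 18.83 with LPS alone. The arrays separate by group although the fall is 1.54-fold (interval 1.31 to 1.82, adjusted p = 0.00149). Ccl5 had 17.39, 17.22 and 17.36 with TsSP, against 17.77, 17.79 and 17.73 with LPS alone, or 1.35-fold lower (interval 1.16 to 1.58, adjusted p = 0.0107). Without TsSP replicate 2 the log2 change of Ccl5 was -0.38 and the call was lost (adjusted p = 0.051), the 1 alternative of 19 that ended it. Ccl9 had 17.88, 17.94 and 17.82 with TsSP, against 17.97, 17.93 and 18.00 with LPS alone. These groups overlap, and the change of -0.08 (interval -0.30 to 0.14, adjusted p = 0.673) leaves room for a fall or rise of the size at those bounds.

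The Ccr4 ligands Ccl22 and Ccl17 were lower with TsSP as well. Ccl22 had 9.84, 9.84 and 10.16 on the TsSP arrays, against 11.86, 11.64 and 11.99 on the LPS arrays, or 3.68-fold lower (interval 2.76 to 4.92, adjusted p = 3.46e-05). Ccl17 had 5.34, 5.44 and 5.31 with TsSP, which is not above background on any of those arrays, against 7.08, 7.05 and 7.15 with LPS alone. Its fall is therefore given as at least 1.88-fold (adjusted p = 2.23e-05), with the background level standing in where the signal lay under it. Ccl20, the Ccr6 ligand, had 4.77, 5.55 and 4.84 with TsSP, again below background on every array, against 9.11, 8.46 and 8.47 with LPS alone. It was at least 5.66-fold lower with TsSP (adjusted p = 2.35e-06). By the fitted log2 change, which is no bound for genes below background, Ccl20 ranked 13 of 19505 from the largest fall, Ccl7 103, Ccl22 111, Ccl17 144 and Ccl2 155. Ccl4 ranked 300, Ccl12 340, Ccl3 1170, Ccl5 2248 and Ccl9 7600.

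TsSP in the presence of inulin is a separate comparison, on arrays of which none is shared with the comparison above, and 9 of the 10 genes were again lower, Ccl9 again being the exception. Over all genes, 7.99% were called lower and 8.66% higher with inulin and TsSP than with inulin. Of the 9022 genes above background in a group, tested alone, 3968 were called, 1852 of them lower. The median change of the 10 chemokine genes was -1.56, against -0.0013 over all genes. Ccl2 had 15.48, 15.39 and 15.50 with inulin and TsSP, against 17.18, 17.24 and 17.16 with inulin, or 3.34-fold lower (interval 2.86 to 3.92, adjusted p = 6.56e-07). Ccl7 had 12.56, 12.90 and 12.90 with both agents, against 14.98, 14.99 and 14.89 with inulin, or 4.49-fold lower (interval 3.69 to 5.46, adjusted p = 6.56e-07). Ccl12 had 13.98, 14.10 and 13.83, against 15.33, 15.26 and 15.34 with inulin, a fall of 2.53-fold (adjusted p = 8.77e-06). In each of these 3 genes the arrays with both agents lay more than 1 log2 unit below those with inulin.

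Among the remaining genes, the changes when TsSP was added to inulin differed widely in size. Ccl4 had 14.78, 14.85 and 14.83 with inulin and TsSP, against 16.24, 16.11 and 16.24 with inulin, or 2.60-fold lower (adjusted p = 1.64e-05). Ccl3 was 1.46-fold lower, with 18.25, 18.22 and 18.26 against 18.71, 18.73 and 18.94 with inulin (adjusted p = 0.00365). Ccl5 was 1.38-fold lower, with 17.24, 17.36 and 17.31 against 17.77, 17.81 and 17.74 with inulin (adjusted p = 0.00748). The groups of all 3 are separate, which largely follows from the call and was not counted over all genes. Ccl9 had 17.98, 17.85 and 17.98 with both agents, against 17.93, 17.94 and 18.03 with inulin, and these overlap (change -0.03, interval -0.25 to 0.19, adjusted p = 0.891). Ccl22 had 9.43, 9.61 and 10.21 with both, against 12.00, 12.01 and 11.92 with inulin, or 4.68-fold lower (interval 3.51 to 6.25, adjusted p = 1e-05). The arrays with both agents varied more for Ccl22 than for any other gene of the 10 in that group, with an SD of 0.41, and still lay well below the inulin arrays. Ccl17 had 4.85, 5.39 and 5.32 with both, below background, against 7.06, 7.48 and 7.04 with inulin, or at least 1.91-fold lower (adjusted p = 7.17e-06). Ccl20 had 4.52, 5.13 and 4.62 with both, below background, against 8.89, 9.38 and 9.24 with inulin, or at least 7.55-fold lower (adjusted p = 5.8e-07).

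**Figure D2:**
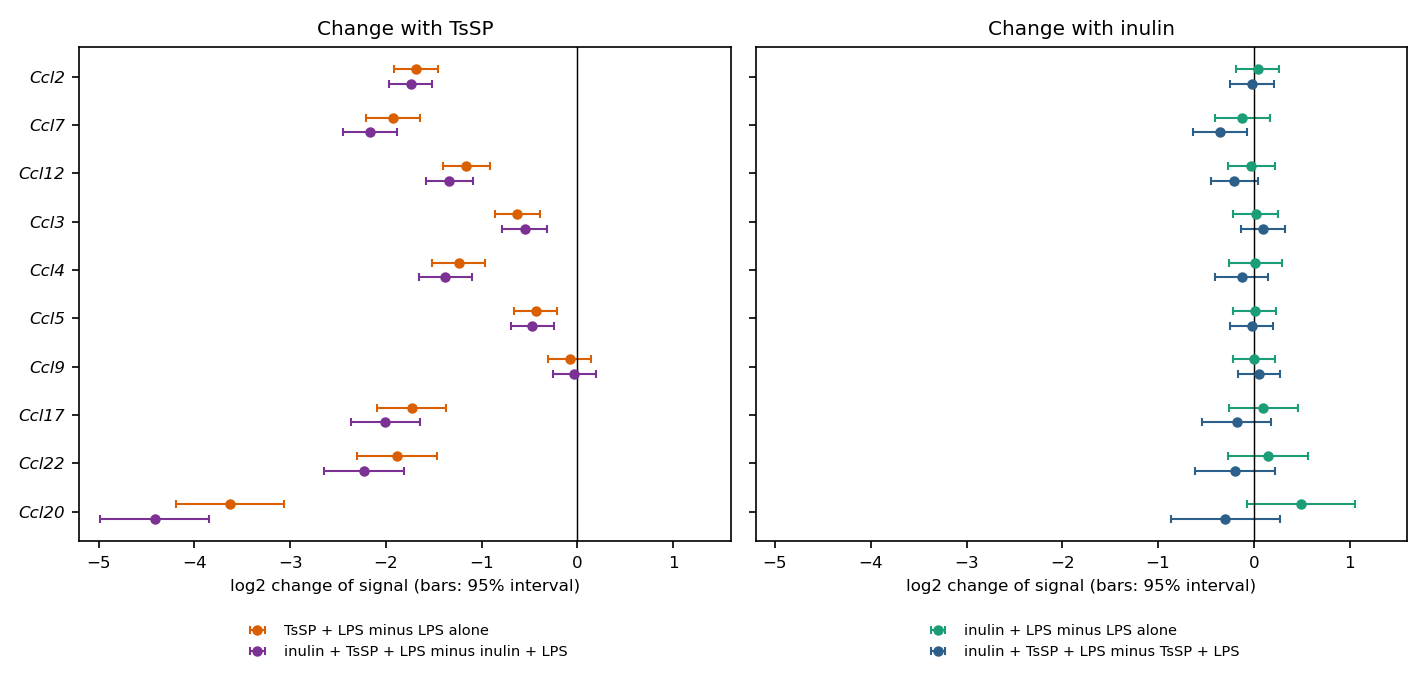
Fitted log2 change (horizontal axes) of the 10 genes with TsSP on the left, in the absence and presence of inulin, and with inulin on the right, in the absence and presence of TsSP. Points are differences of group means and bars 95% intervals from limma (n = 3 arrays per group). The values of Ccl17 and Ccl20 with TsSP rest on signals below background. Changes with TsSP run from -4.41 to -0.03 and those with inulin from -0.35 to 0.49.

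Inulin and TsSP together, set against LPS alone, again gave lower signals in 9 genes and a higher one in 0, where 7.3% of all genes were called lower and 10.3% higher. This comparison shares its LPS arrays with the TsSP comparison and its other arrays with the addition of TsSP to inulin, so its agreement with them is no separate evidence. Ccl7 was 4.87-fold lower (adjusted p = 4.36e-07), beside 3.81-fold with TsSP without inulin. Ccl22 was 4.22-fold lower (adjusted p = 1.57e-05), Ccl2 3.25-fold (7.73e-07), and Ccl12 and Ccl4 each 2.57-fold (7.22e-06 and 1.73e-05). Ccl3 was 1.44-fold lower (0.00434) and Ccl5 1.37-fold (0.00836). Ccl20 was at least 5.37-fold lower (1.35e-06) and Ccl17 at least 1.79-fold (9.66e-06). Ccl9 changed by -0.03 (adjusted p = 0.902).

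Inulin changed 0 of the 10 genes at the threshold, with or without TsSP. Against LPS alone, 0% of all 19505 genes were called with inulin by limma, in either direction, and 1143 (5.86%) had an unadjusted p under 0.05, of which 0 were among the 10. Changes ran from -0.12 for Ccl7 to 0.49 for Ccl20. The Ccl20 arrays with inulin had 8.89, 9.38 and 9.24, against 9.11, 8.46 and 8.47 with LPS alone, and they overlap (interval -0.08 to 1.06, adjusted p = 0.871). The interval for Ccl9 ran from -0.22 to 0.23. That for Ccl2 ran from -0.19 to 0.27, so a change of the size seen with TsSP in Ccl2 lies outside it.

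When inulin was added to TsSP, 0% of all genes were called in either direction and 971 (4.98%) had an unadjusted p under 0.05. Ccl7 was the 1 member of the 10 among them. Its arrays with inulin and TsSP, at 12.56, 12.90 and 12.90, lay below those with TsSP at 13.12, 13.09 and 13.21. The change was -0.35 (interval -0.64 to -0.07, unadjusted p = 0.0184, adjusted p = 0.978). Ccl3 arrays did not overlap either, in the other direction, with a change of 0.10 (adjusted p = 0.997). Such separation was not counted over all genes, so neither gene is read as changed by inulin. The interaction asks whether TsSP changed a gene by a different amount in the presence of inulin. It called 0% of genes in either direction, with 1089 (5.58%) at an unadjusted p under 0.05 and 0 of the 10 among them. The largest was Ccl20 at -0.79 (interval -1.59 to 0.01, unadjusted p = 0.0534, adjusted p = 0.904), which rests on signals below background. Intervals for Ccl2 of -0.38 to 0.27, and for Ccl22 of -0.94 to 0.24, show how large a difference these arrays could have missed. In the 9 genes, then, the levels fell into a lower pair of groups (inulin with TsSP, TsSP) and a higher pair (inulin, LPS alone), and within each pair no gene passed the test.

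Most of these genes sit beside each other in the annotation. On chromosome 11 the order is Ccl2, Ccl7, Ccl11, Ccl12, Ccl8 and Ccl1, and there Ccl2, Ccl7, Ccl12 and Ccl8 fell with TsSP, while Ccl11 and Ccl1 were below background in every group. A further stretch of chromosome 11 holds Ccl5, Ccl9, Ccl6, Ccl3 and Ccl4. There Ccl5, Ccl3 and Ccl4 fell and the adjacent Ccl9 and Ccl6 did not pass (Ccl6 change -0.05, interval -0.54 to 0.44, adjusted p = 0.918). The annotated spans of Ccl3 and Ccl4 overlap by 755 bases, counted without regard to strand. Whether signal of these 2 genes is fully separate was not tested. On chromosome 8, Ccl22 and Ccl17 both fell, and Cx3cl1 between them was below background in every group. Ccl20 lies on chromosome 1, away from the rest.

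**Figure D3:**
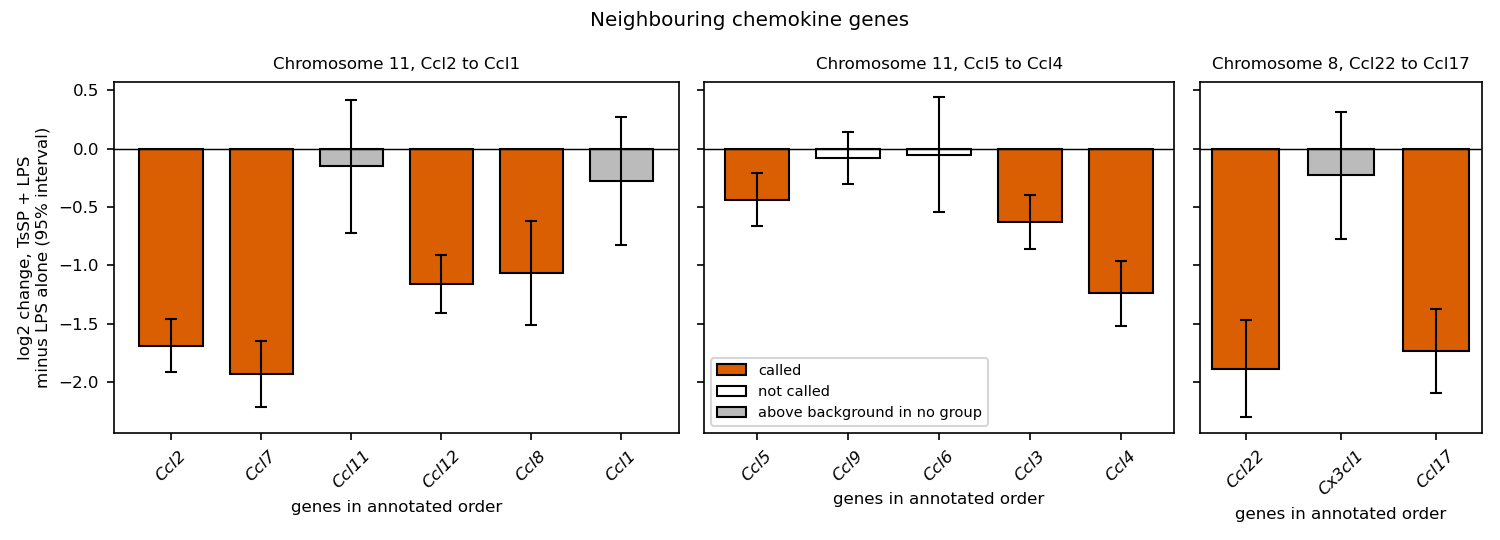
Fitted log2 change with TsSP against LPS alone (vertical axis) of chemokine genes in the order of the RefSeq annotation, in 2 stretches of chromosome 11 and 1 of chromosome 8. Bars are differences of group means, whiskers 95% intervals, and fill gives the call. Orange bars fell; the open bars of Ccl9 and Ccl6 lie among called neighbours.

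Of the 14 other CC, C and CX3C ligands measured, 3 (Ccl6, Ccl8 and Ccl25) were above background in a group. With TsSP 1 was called lower and 1 higher, with a median over the 14 of -0.07, so that the share called lower was near that of all genes (7.08%, beside 11% higher). Ccl8, another monocyte-attracting chemokine, had 6.19, 6.36 and 6.76 on the TsSP arrays, against 7.43, 7.78 and 7.28 on the LPS arrays, with 2 of the 3 TsSP arrays above background, or at least 2.08-fold lower (adjusted p = 0.00316). It was also lower when TsSP was added to inulin (at least 2.16-fold, adjusted p = 0.000883). Ccl25, which binds Ccr9, had 7.81, 7.72 and 8.20 with TsSP, against 6.84, 6.78 and 7.11 with LPS alone, or 2.00-fold higher (adjusted p = 0.000929). With inulin present Ccl25 was 1.46-fold higher (adjusted p = 0.035), a call lost in 11 of 19 alternative settings, including the omission of any 1 of the 6 arrays compared (adjusted p 0.0524 to 0.124). Of 13 receptors measured, 3 were above background in a group. Ccrl2, an atypical receptor that binds chemerin, was 2.91-fold lower with TsSP (adjusted p = 5.9e-06) and 3.04-fold lower when TsSP was added to inulin (adjusted p = 4.54e-06). Ccr2, the receptor of Ccl2, Ccl7 and Ccl12, had 8.48, 7.88 and 7.94 with TsSP, against 6.92, 6.86 and 7.27 with LPS alone, or 2.12-fold higher (adjusted p = 0.0281). That call was lost in 6 of 19 alternatives: without LPS replicate 1 (adjusted p = 0.0787) or 2 (0.0853), without TsSP replicate 1 (0.107) or 3 (0.0524), with quantile normalization (0.0751) and with centring on exon controls (0.0669). When TsSP was added to inulin the gene did not pass (adjusted p = 0.0848). Ccr1 and Ccr3 were called higher and Ccr9 lower with TsSP, but none was above background on all arrays of either group, so no fold is given. With inulin and TsSP together, the Ccr2 and Ccr9 calls against LPS alone were lost on leaving out LPS replicate 1, LPS replicate 2 or Inulin_TsSP replicate 3, and the Ccr2 call also without Inulin_TsSP replicate 2.

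Of 32 genes measured for LPS signalling and for the control of chemokine transcription and mRNA decay, 12 were lower and 7 higher with TsSP, with a median of -0.24. All but 1 of the 32 were above background in a group. Over all genes 7.08% were lower and 11% higher, and by class of signal 27.6% to 39.8% of genes with a mean of 6 or more with LPS alone were called in either direction. Adding TsSP to inulin gave 11 lower and 5 higher, where 7.99% and 8.66% of all genes were called. Irf1, a transcription factor induced by interferon and LPS, was 4.11-fold lower (interval 3.33 to 5.07, adjusted p = 1.71e-06). Rel, an NF-kB subunit, was 2.86-fold lower (adjusted p = 5.9e-06), and Nfkbiz, a nuclear co-regulator of NF-kB targets, 2.59-fold (2.26e-05). Tnfaip3, a deubiquitinase that restrains NF-kB, was 2.79-fold lower (3.27e-06). Irf8, a transcription factor of the myeloid lineage, was 3.69-fold higher (interval 2.99 to 4.54, adjusted p = 2.89e-06), and Fos, a part of AP-1, was 4.00-fold higher (1.19e-05). The LPS receptor genes Tlr4 (change -0.04, interval -0.32 to 0.24) and Cd14 (0.13, interval -0.10 to 0.35) did not pass the test. Ly96, which codes for MD-2, the LPS-binding partner of Tlr4, had 15.75, 15.89 and 15.79 with TsSP, against 15.25, 15.22 and 15.30 with LPS alone, or 1.47-fold higher (adjusted p = 0.0035). It was 1.39-fold higher when TsSP was added to inulin (adjusted p = 0.00936). Ly96 is named for its role in the receptor, after its values were seen, and is not among the 6 smallest p-values of the list. Transcripts of activators and of inhibitors of NF-kB were thus both among those that fell.

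A mean profile over the 10 chemokine genes, with each gene centred on its own mean, lay between -0.94 and -0.65 on the 6 arrays with TsSP and between 0.67 and 0.84 on the 6 arrays without it. The chemokine genes themselves, each a part of that mean, correlated with it at r of 0.96 (Ccl3) to 0.99 (Ccl20), except Ccl9 at 0.47. The 10 other genes closest to it over the 12 arrays, of 9009 candidates above background, were Hcar2, Pnpt1, Tnf, Lacc1, Cyria, Tnfsf15, Il6, Mthfs, Cxcl10 and Peli1, with r of 0.998 (Hcar2) to 0.995 (Peli1). Hcar2, a receptor for niacin and ketone bodies, had 12.40, 12.60 and 12.42 with TsSP, against 14.66, 14.56 and 14.53 with LPS alone. Tnf, an inflammatory cytokine, had 14.82, 14.69 and 14.55 with TsSP, against 17.24, 17.36 and 17.29 with LPS alone. These correlations follow a treatment contrast shared by all 12 arrays and describe likeness only.

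Signal was close to the top of the array's range for some of these genes. Ccl3 was the brightest gene by mean signal and lay 0 to 0.64 log2 units below the top value of its array, while Ccl9 lay 0.75 to 1.01 and Ccl5 0.94 to 1.54 below it. The 3 smallest changes among the 10, those of Ccl9, Ccl5 and Ccl3, belong to these 3 genes. Of the 58 genes with a mean of 17 or more with LPS alone, 16 (27.6%) were called with TsSP and 4 changed over 2-fold, among them Ccl2, Cxcl10 and Tnf, the last with a change of -2.61. The part played by signal height in the small changes of Ccl3, Ccl5 and Ccl9 was not tested. Centring an array shifts every gene on it by the same amount, Ccl9 included. With arrays centred on the exon control probe sets, the median over all genes was -0.19 in place of 0.02 for TsSP against LPS alone, and 68.2% of called genes were lower in place of 39.2%. Ccl9 then changed by -0.29 (adjusted p = 0.113), and this move with the median was fixed by the centring.

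**Figure D4:**
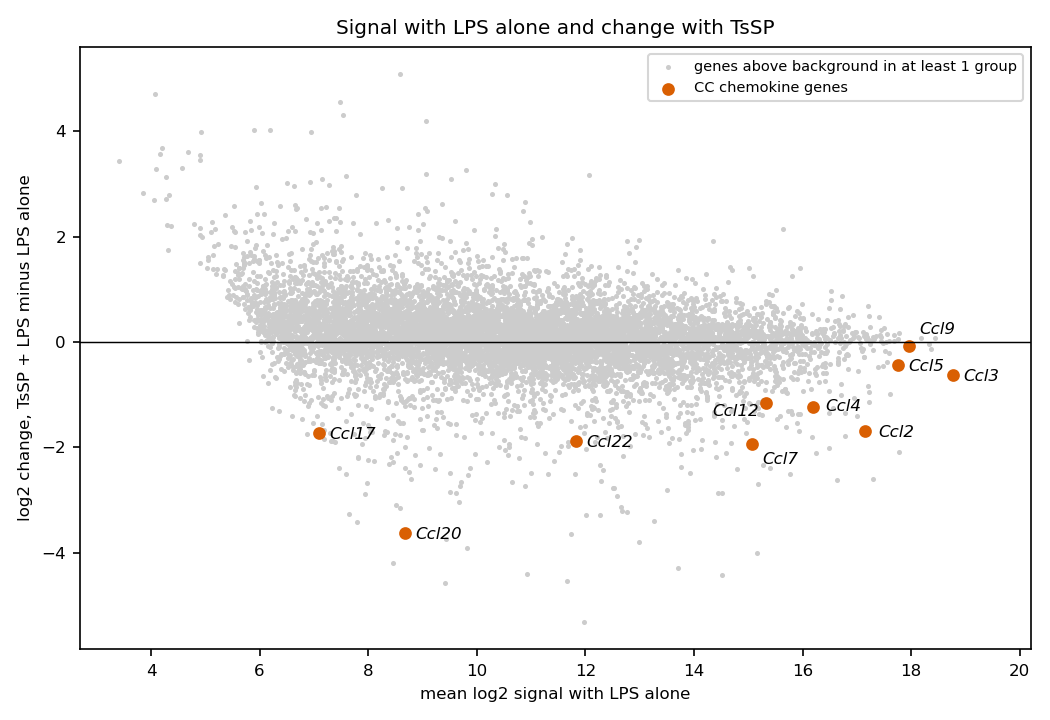
Log2 change with TsSP against LPS alone (vertical axis) by mean log2 signal with LPS alone (horizontal axis) for genes above background in at least 1 group (grey points), with the 10 chemokine genes in orange. Ccl3, Ccl5 and Ccl9 lie at the bright end, and Ccl20 and Ccl17 at the dim end, where signals with TsSP were below background.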

How the data were processed

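Groups of the 12 arrays follow the treatment label of each sample. Per the labels' protocols, RNA was purified on RNeasy columns and biotin-labelled by the standard Affymetrix procedure. The deposited table gives 1 log2 signal per probe set and array. The log base was not stated and is inferred from values of 1.32 to 18.94, and how the authors corrected background and normalized, and with which software, is not given in the sources used here. Folds carry any compression that this processing caused at either end of the scale.

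Of 28846 probe sets, 19572 are annotated to a single gene, all matched to RefSeq GRCm38.p6, which was used for names, gene order and promoters. Where a gene had several probe sets (55 genes), the highest-mean one was kept, leaving 19505. The background level of an array was its brightest background probe of 23. Above background in a group means over that level on all 3 arrays, which held for 9022 genes in some group. For a called gene under it on arrays of the dimmer group, the text gives a lower bound (at least N-fold), which replaces each such array's signal by the background level if that is higher.

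A mean per group was fitted to all 12 arrays at once, and comparisons were contrasts of that fit (lmFit and eBayes, limma 3.58.1, R 4.3.3; 8 residual and 3.35 prior degrees of freedom). Tests were two-sided. In each of the 6 contrasts the Benjamini-Hochberg adjustment ran over all 19505 genes, and the threshold was 0.05. The scripts were tested on simulated data. Arrays give no counts, and their number limits the precision. The 10 genes, the other lists and the tests were chosen with earlier results of these data known. Named beside the 10 genes, with Ly96 as an exception, are up to 6 called members of each list by smallest p, and the 10 genes most like the mean profile. Alternatives covered scaling, probe set choice, the filter on dim genes, the variance trend, a replicate block and leaving out each array. Figures used matplotlib 3.10.9 (Python 3.11.15).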

Additional observations from a re-analysis of the deposited data

How the results depend on the processing

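Across 19 alternatives (7 changes of scaling, filter, probe set rule, variance model or block, and the omission of each of 12 arrays), the 27 called values of the CC chemokine genes kept direction and call in 512 of 513 checks. The exception was Ccl5 with TsSP without TsSP replicate 2 (adjusted p = 0.051). None of the 33 uncalled values became called in 627 checks, and 35 of those checks turned the sign of an uncalled value. Same-numbered arrays correlated at -0.09 to 0.10 in their deviations from group means, with 1 of 18 pairs over 0.1, so the numbers were not taken as pairs. With the replicate block 9 of the 10 genes were still called with TsSP, with or without inulin, and 0 with inulin.

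Counts of other genes moved by over 1.5 times in some settings. Tests of genes above background alone covered only 3 of the 13 receptors and left out Ccr1, Ccr3 and Ccr9. In those tests 2 receptors were called with TsSP against 5, and 2 against 4 with both agents. Leaving out LPS replicate 1, LPS replicate 2 or Inulin_TsSP replicate 3 also gave 2 against 4 with both agents. Over all genes, tests of genes above background alone called 4182 of 9022 with TsSP and 4171 with both agents, in either direction. The main tests called 18.1% and 17.6% of 19505 genes, so the receptor counts are not read as a result about receptors. Other ligands called ranged from 1 to 2 with both agents and when TsSP was added to inulin. With 3 arrays a group and no untreated cells, changes near those of Ccl5 were close to the limit of detection, and levels of Ccl17 and Ccl20 with TsSP are known only as below background.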
